A study of Rattus norvegicus with 4 samples.

Results

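Translation initiation factors (eIFs) and elongation factors (eEFs) are the soluble proteins that load messenger RNA onto the ribosome and carry transfer RNA through it. They were taken from the deposited gene table as every entry whose symbol starts with Eif1, Eif2, Eif3, Eif4, Eif5, Eif6, Eef1 or Eef2, which gave 66 entries with 65 symbols among the 32545 listed. The libraries came from rat liver, 2 from animals under chronic sleep restriction with forced activity and 2 from animals under forced activity alone, so that both groups shared the forced activity. No strain, age or duration is given in the labels, and nothing there says whether each library is a separate animal, so errors and p-values measure the spread between libraries, which may be technical. In bulk liver RNA, fewer cells of a type and less RNA per cell cannot be told apart.

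In initiation, eIF2 brings the initiator transfer RNA to the small ribosomal subunit, eIF3 forms the scaffold around that subunit, and eIF4E, eIF4G and eIF4A bind the cap of the message and unwind its leader. In elongation, eEF1A delivers each aminoacyl-transfer RNA, eEF1B recharges eEF1A with GTP, and eEF2 moves the ribosome to the next codon. Liver, which exports most plasma proteins, depends on both steps. They are controlled mainly by phosphorylation: of the alpha subunit of eIF2 by 4 stress kinases, of the eIF4E-binding proteins by the growth kinase complex TORC1, and of eEF2 by its own kinase. Messenger RNA levels do not report that phosphorylation.

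The tabulated counts summed to 515682.4 and 520275.6 in sleep restriction libraries 1 and 2, and to 508202.6 and 520204.5 in forced activity libraries 1 and 2. Behind these near-equal totals, 14105 and 10952 genes were above 0 in sleep restriction libraries 1 and 2. In forced activity libraries 1 and 2 they numbered 14008 and 11943. Decimals were common in 3 of the columns but stood at a single gene in that of sleep restriction library 2. If those 3 columns are means over repeated draws, as read in the processing section below, a gene hit in any draw counts as above 0. The numbers above 0 therefore do not compare detection at equal totals. Library 2 had the fewer genes above 0 in each group. Differences within replicate 1 and within replicate 2 are given beside most of the pooled ones. Albumin took 11.6% to 13.6% of the counts, and all 12 hepatocyte markers were high enough to test. Endothelial markers summed to 750 and 413 CPM (TMM-scaled counts per 1e+06 counts of the tested genes) under sleep restriction and to 288 and 801 CPM under forced activity, and macrophage markers to 1029 and 694 CPM against 655 and 846 CPM under forced activity, with Timd4 at 0 throughout. Red cell markers summed to 1241 and 761 CPM under sleep restriction and to 932 and 1936 CPM under forced activity, and no cholangiocyte or lymphocyte marker had enough counts to test. The part of these cells in the results was not tested.

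Across the factors as a set, sleep restriction libraries differed little from forced activity libraries. Of the 66 entries 50 had enough counts to be tested, 3 were listed at 0 in every library, and the other 13 were too low to test. No tested member passed an adjusted p of 0.05 in edgeR, against 0.0201% of the 4986 genes tested, which is 1 gene and no translation factor. The log2 changes of the 50 ran from -0.48 to 0.65 with a median of 0.01, while those of all tested genes ran from -3.93 to 1.80 with a median of 0.00. Within 0.5 of no change on that scale lay 47 members, or 94% of them, and 87.5% of all genes. The median standard error (SE) of a member's log2 change was 0.268. A change of that size in a single factor could not be told from none with 2 libraries a group. On simulated data the fit called 16.1% of 2-fold changes, at a set dispersion of 0.05 that was not estimated from these libraries. Changes larger than that SE could be missed as well, to an extent not measured for these libraries. Negative changes were found in 22 of the 50, or 44%, against 47.7% of all genes.

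Counts of the looser kind were near the background as well. Both sleep restriction libraries lay above both forced activity libraries in 8 members, or 16%, against 17.2% of all genes tested, and below them in 5 members, or 10%, against 15.3%. Changes were positive within both replicate numbers in 18 members (36%, against 28.7% of all genes) and negative within both in 12 (24%, against 27.4%). Without adjustment, the edgeR test put 2 members under 0.05, which is 4% against 4.25% of all genes. They were Eif4g1 on the higher side, where the background was 2.91%, and Eef1b2 on the lower side, where it was 1.34%.

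**Figure D1:**
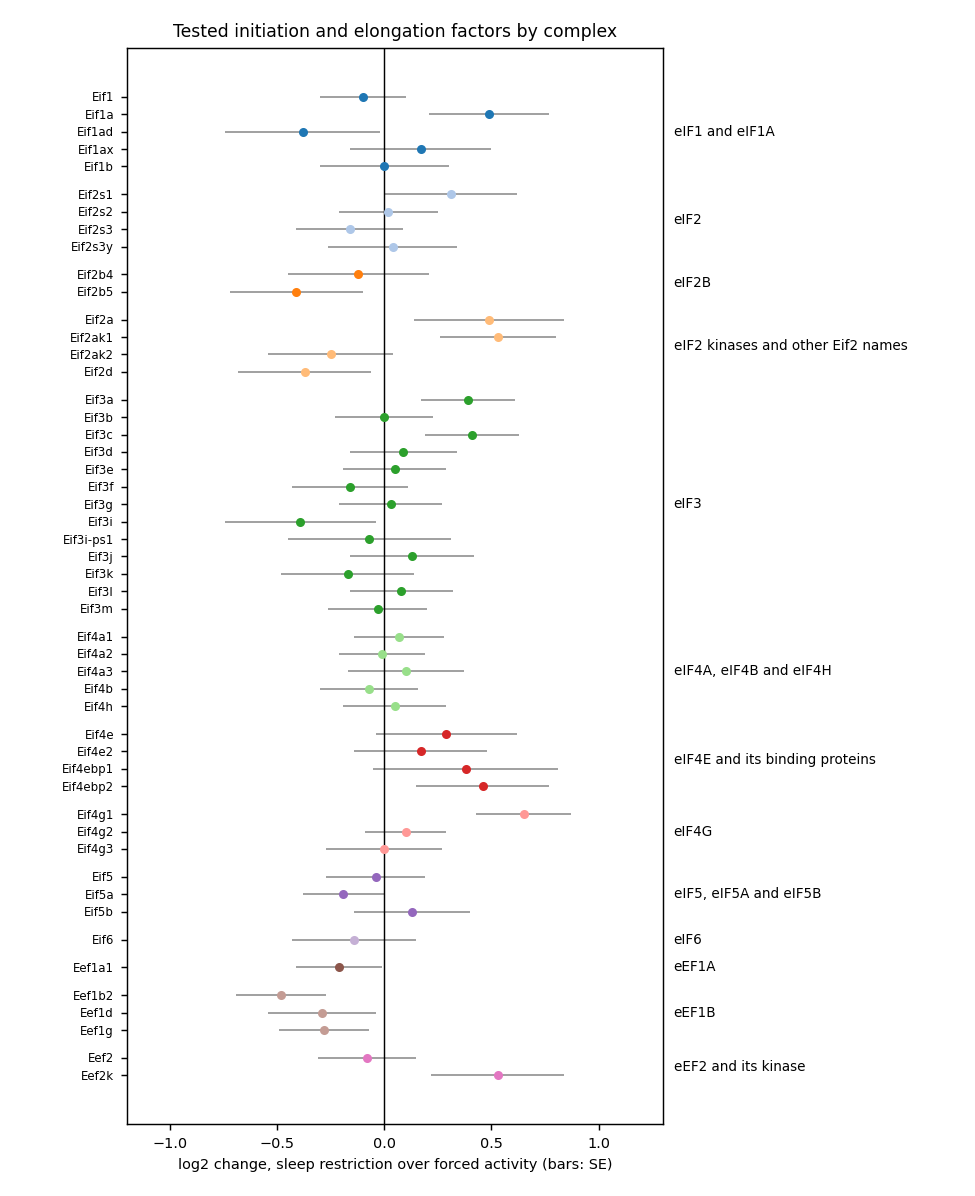
Log2 change of sleep restriction over forced activity (x axis) for each of the 50 tested factors (rows), grouped and coloured by complex. Points are edgeR estimates and bars are 1 SE on each side. The eEF1 subunits lie left of 0 and Eif4g1 lies farthest right at 0.65.

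The first complexes to act on the small subunit gave small and mixed differences. Eif1, whose product keeps the scanning ribosome open, had 158 and 177 CPM in sleep restriction libraries 1 and 2, against 179 and 183 CPM in forced activity libraries 1 and 2. Its groups did not overlap, but the log2 change was only -0.10 (SE 0.20, adjusted p = 0.991). Eif1a, one of the entries for eIF1A, the partner of eIF1 in scanning, had 48.4 and 65.1 CPM under sleep restriction and 35.6 and 45.0 CPM under forced activity. Both sleep restriction libraries were the higher ones, with a log2 change of 0.49 (SE 0.28, adjusted p = 0.978) that was 0.40 within replicate 1 and 0.50 within replicate 2. The X-linked Eif1ax, Eif1b and Eif1ad overlapped between the groups, and the summed CPM of the 5 entries averaged 306 ± 38.8 under sleep restriction and 307 ± 28.7 under forced activity (SD, n = 2 each).

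Genes of the 3 subunits of eIF2, which carries the initiator transfer RNA, overlapped between the groups. Eif2s1, the alpha subunit that the stress kinases phosphorylate, had 45.2 and 63.1 CPM under sleep restriction and 34.1 and 52.0 CPM under forced activity, a log2 change of 0.31 (SE 0.31, adjusted p = 0.978). The higher value stood in library 2 of each group, so that the difference within replicates was 0.37 and 0.26. With 1 library left out the log2 change ran from 0.03 to 0.66. Eif2s2, the beta subunit, had 102 and 118 CPM against 96.6 and 118 CPM under forced activity, a log2 change of 0.02 (SE 0.23, adjusted p = 1). The gamma subunit has an X-linked and a Y-linked gene in the rat, Eif2s3 and Eif2s3y. Eif2s3, chosen after its values were seen, had a log2 change of -0.16 (SE 0.25, adjusted p = 0.978), and Eif2s3y was counted in all 4 libraries.

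The exchange factor eIF2B, which reloads eIF2 with GTP, was thinly counted, and only 2 of its 5 subunits were tested. Eif2b5, the catalytic subunit, had 50.5 and 28.5 CPM under sleep restriction and 49.8 and 55.5 CPM under forced activity. Sleep restriction library 2 alone was low, and the log2 change of -0.41 (SE 0.31, adjusted p = 0.978) was 0.02 within replicate 1 and -0.87 within replicate 2. Eif2b1, Eif2b2 and Eif2b3 had no more than 12 counts in any library.

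Of the 4 kinases that phosphorylate eIF2 under stress, Eif2ak1 and Eif2ak2 were tested, and only Eif2ak1 had groups that did not overlap. Of all genes tested, 17.2% lay above forced activity in both libraries and 15.3% below. Eif2ak1, the haem-regulated kinase HRI, had 48.6 and 50.9 CPM under sleep restriction and 39.2 and 30.4 CPM under forced activity. Its log2 change was 0.53 (SE 0.27, adjusted p = 0.978), with 0.28 within replicate 1 and 0.67 within replicate 2. Eif2ak2, the kinase PKR that senses double-stranded RNA, had 28.9 and 34.6 CPM against 34.3 and 41.1 CPM under forced activity, and these groups overlapped by a small margin (log2 change -0.25, SE 0.29, adjusted p = 0.978). Eif2ak3 is the endoplasmic reticulum kinase PERK, and its 8.9 and 10 counts under sleep restriction and 9.5 and 7.3 counts under forced activity were too few to test. Eif2ak4, the amino acid sensor GCN2, had 4.4 and 6 counts against 3.3 and 4.8 counts under forced activity.

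A pair of factors that can deliver initiator transfer RNA outside the eIF2 route, both chosen after their values were seen, had opposite signs. Eif2a had 40.9 and 42.7 CPM under sleep restriction and 40.3 and 18.9 CPM under forced activity, where forced activity library 2 alone was low, for a log2 change of 0.49 (SE 0.35, adjusted p = 0.978). That change was 0.02 within replicate 1 and 1.03 within replicate 2. Eif2d had 27.5 and 38.7 CPM against 35.8 and 49.9 CPM under forced activity, a log2 change of -0.37 (SE 0.31, adjusted p = 0.978) with -0.34 within each replicate number.

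eIF3 is the largest initiation factor, and 13 of its 15 entries were tested. Their median log2 change was 0.03, from -0.39 to 0.41. Its core subunits Eif3a and Eif3c, the ones that span the back of the small subunit, were the 2 of 13 whose groups did not overlap. Both lay above forced activity, as did 17.2% of all genes tested. Eif3a had 178 and 220 CPM under sleep restriction and 142 and 159 CPM under forced activity, a log2 change of 0.39 (SE 0.22, adjusted p = 0.978). Eif3c had 129 and 163 CPM against 107 and 113 CPM under forced activity, a log2 change of 0.41 (SE 0.22, adjusted p = 0.978). Both were higher within each replicate number, by 0.32 and 0.46 for Eif3a and by 0.26 and 0.51 for Eif3c.

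The rest of eIF3 did not follow these subunits. Eif3b, the remaining large core subunit, had a log2 change of 0.00 (SE 0.23, adjusted p = 1), with 76.7 and 73.3 CPM under sleep restriction and 79 and 71.5 CPM under forced activity. At the low end stood Eif3i, a WD40 repeat subunit picked with its values known. It had 29.5 and 16.3 CPM under sleep restriction and 31.8 and 28 CPM under forced activity (log2 change -0.39, SE 0.35, adjusted p = 0.978). Sleep restriction library 2 alone was low, the difference was -0.09 within replicate 1 and -0.66 within replicate 2, and the change ran from -0.85 to -0.05 with 1 library left out. An entry marked as its pseudogene, Eif3i-ps1, was counted at 11.8 and 9 under sleep restriction and at 12.8 and 9.4 under forced activity, so reads of Eif3i may be divided between entries. Eif3h appeared under 2 identifiers, of which 1 was listed at 0 in every library and the other held 8.5 and 5 counts under sleep restriction and 10.5 and 9 counts under forced activity. Summed over all 15 entries, eIF3 reached 960 and 1013 CPM under sleep restriction and 925 and 908 CPM under forced activity. The sums did not overlap, and the log2 ratio of their means was 0.11 (two-sided exact permutation p = 0.333, the smallest that 2 against 2 libraries allow).

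The 4 tested entries of the eIF4E group had positive log2 changes, from 0.17 to 0.46, and none passed the test. Positive changes were found in 2607 of the 4986 genes tested. Eif4e encodes the protein that holds the cap, and its 52.9 and 83.4 CPM under sleep restriction overlapped with 40.1 and 69.5 CPM under forced activity (log2 change 0.29, SE 0.33, adjusted p = 0.978). Library 2 was again the higher one in each group. Eif4ebp1 and Eif4ebp2 encode proteins that hold eIF4E away from eIF4G until TORC1 phosphorylates them. Eif4ebp1 had 40.7 and 20.3 CPM against 32 and 15.6 CPM under forced activity, a log2 change of 0.38 (SE 0.43, adjusted p = 0.978). Eif4ebp2 had 96.3 and 52.9 CPM against 55.9 and 52.4 CPM under forced activity. Sleep restriction library 1 alone was high, and the log2 change of 0.46 (SE 0.31, adjusted p = 0.978) was 0.74 within replicate 1 and 0.01 within replicate 2. Eif4ebp3 is not analysed here.

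Although single members overlapped, the sum over the 7 eIF4E entries did not. It was 232 and 230 CPM under sleep restriction, against 173 and 187 CPM under forced activity. The log2 ratio of the means was 0.36 (two-sided exact permutation p = 0.333, the smallest possible). It stayed between 0.30 and 0.42 with any 1 library left out. The single members were less steady there, as Eif4e (-0.08 to 0.75), Eif4ebp1 (-0.21 to 0.96) and Eif4ebp2 (-0.03 to 0.82) each spanned 0. The sum adds activators to inhibitors: Eif4e with its 2 binding proteins, the cap-binding homologue Eif4e2, the eIF4E transporter Eif4enif1, and Eif4e3 at no more than 2.9 counts a library. Eif4e1b was listed at 0 throughout, which allows up to 3 counts, or 5.84 to 6.36 CPM, in a library.

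Eif4g1, the scaffold that joins the cap-binding protein, the helicase and eIF3, had the highest log2 change of the 50. It lies on chromosome 11 from 83908109 to 83926524 in rn6. Its values were 186 and 173 CPM under sleep restriction, against 129 and 98.9 CPM under forced activity. All of the sleep restriction values were above the forced activity ones, and the log2 change was 0.65 (SE 0.22, adjusted p = 0.978 in edgeR), so it was not called. The difference was 0.51 within replicate 1 and 0.78 within replicate 2, and from 0.46 to 0.85 with 1 library left out. With replicate number as a block its adjusted p in edgeR was 0.307, the lowest of any member in that fit, and over the alternatives it ran from 0.307 to 1.

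The other scaffolds of this family differed less from no change. Eif4g2, which lacks the part that binds eIF4E, had 386 and 431 CPM against 380 and 385 CPM under forced activity, a narrow separation with a log2 change of 0.10 (SE 0.19, adjusted p = 0.991). Eif4g3 had 48.0 and 40.7 CPM against 47.3 and 43.4 CPM under forced activity, a log2 change of 0.00 (SE 0.27, adjusted p = 1). Together the 3 scaffolds summed to 620 and 645 CPM under sleep restriction and to 556 and 528 CPM under forced activity, a log2 ratio of 0.22 (two-sided exact permutation p = 0.333, the smallest possible).

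The helicases and their cofactors were the flattest group. The 5 genes Eif4a1, Eif4a2, Eif4a3, Eif4b and Eif4h had log2 changes between -0.07 and 0.10. Eif4a1, the main helicase of the cap complex, had 262 and 295 CPM under sleep restriction and 232 and 300 CPM under forced activity. Eif4a3, a core protein of the exon junction complex, had 50.3 and 40.7 CPM against 41.5 and 42.3 CPM under forced activity. All 5 overlapped between the groups, and their sum averaged 853 ± 55.1 CPM under sleep restriction and 845 ± 23.7 CPM under forced activity (SD, n = 2 each).

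**Figure D2:**
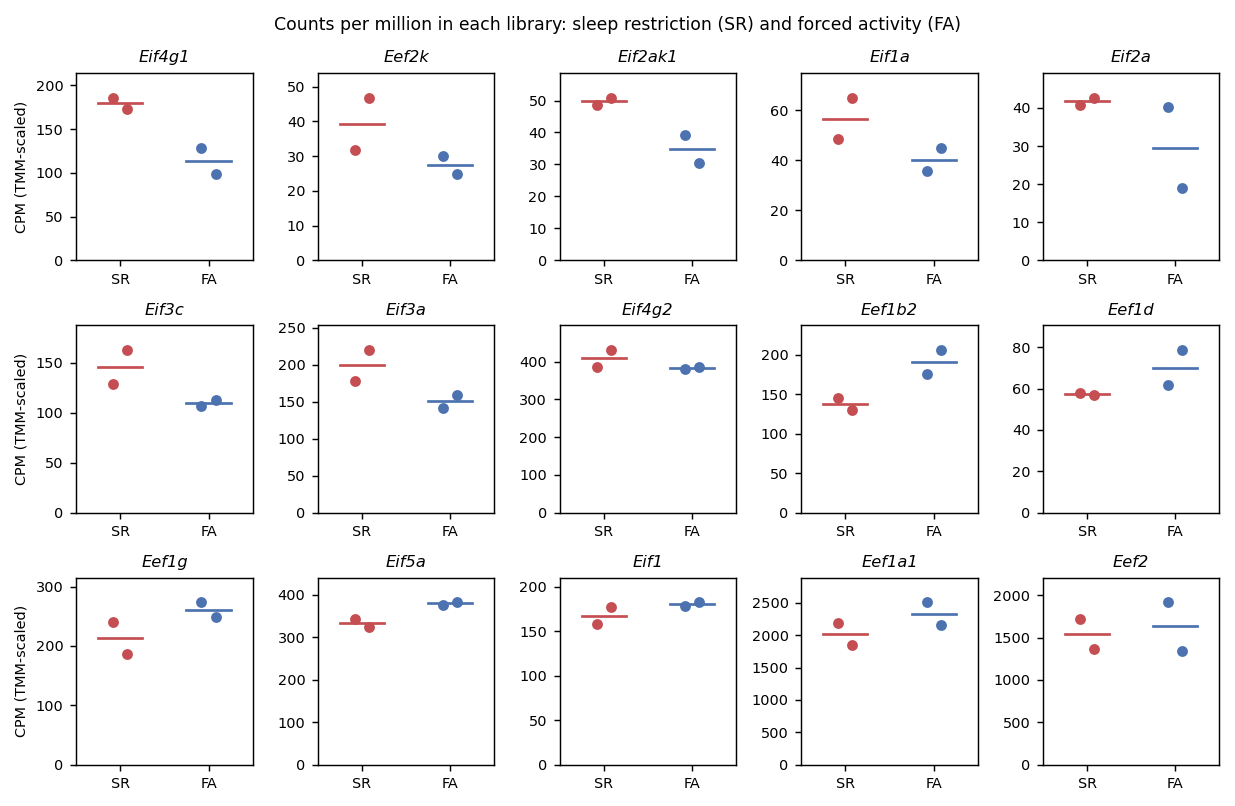
TMM-scaled CPM (y axes, from 0) of the 13 tested members whose groups did not overlap, then of Eef1a1 and Eef2, in sleep restriction (SR, left) and forced activity (FA, right) libraries. Points are libraries, with replicate 1 on the left of each group, and lines are means. Eif4g1 stands at 186 and 173 CPM under SR and at 129 and 98.9 CPM under FA.

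Factors of subunit joining and release gave small differences. Eif5a, which helps ribosomes through difficult peptide bonds and carries the modified residue hypusine, had 342 and 324 CPM under sleep restriction and 377 and 383 CPM under forced activity. The groups stood apart, but by a log2 change of only -0.19 (SE 0.19, adjusted p = 0.978). Eif5, which triggers GTP hydrolysis on eIF2, was chosen after its values were seen and had a log2 change of -0.04 (SE 0.23, adjusted p = 0.997). Eif6, which keeps large subunits from joining too early, had 52.3 and 38.7 CPM against 42.4 and 58.4 CPM under forced activity. Its difference was 0.28 within replicate 1 and -0.55 within replicate 2, for a log2 change of -0.14 (SE 0.29, adjusted p = 0.991). Eif5a2 held at most 0.6 counts in any library.

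Among tested genes with Eef names 5 of 6 had negative changes, against 17 of 44 with Eif names. These names also take in regulators, such as the kinase Eef2k, which was the 1 positive Eef name, and the eIF2 kinases. Of all genes tested 47.7% were negative, and no member was called. All 4 genes of the eEF1 complex that could be tested, Eef1a1, Eef1b2, Eef1d and Eef1g, had lower values under sleep restriction within both replicate numbers. That held for 27.4% of all genes tested, and genes of one complex in the same libraries are not replicates. The log2 changes of these 4 ran from -0.48 to -0.21, with a median of -0.19 within replicate 1 and -0.42 within replicate 2. Their CPM summed to 2635 and 2218 under sleep restriction and to 3022 and 2686 under forced activity, a log2 ratio of -0.23 (two-sided exact permutation p = 0.333, the smallest possible). This grouping of 4 was made after the values were seen.

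Eef1a1, the carrier of aminoacyl-transfer RNA, had 2191 and 1844 CPM under sleep restriction, against 2511 and 2153 CPM under forced activity. The higher sleep restriction library lay just above the lower forced activity library, so the groups overlapped. Its log2 change was -0.21 (SE 0.20, adjusted p = 0.978) and nearly equal within replicate 1 at -0.20 and within replicate 2 at -0.22. Eef1a2, the form known from muscle and neurons, had 0 counts in both sleep restriction libraries and 0.1 and 0.5 counts in forced activity libraries 1 and 2, so no difference was detectable at this depth.

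In eEF1B, all 3 tested subunits had both sleep restriction values below both forced activity values, as did 15.3% of all genes tested and 10% of the members. Eef1b2, an exchange subunit on chromosome 9 from 69953440 to 69956160 in rn6, had 145 and 130 CPM under sleep restriction and 175 and 206 CPM under forced activity. Its log2 change of -0.48 (SE 0.21, adjusted p = 0.978) was the lowest of the 50, with -0.27 within replicate 1 and -0.65 within replicate 2. Eef1g, the subunit that anchors the complex, had 241 and 187 CPM against 274 and 248 CPM under forced activity (log2 change -0.28, SE 0.21, adjusted p = 0.978), with -0.18 and -0.40 within replicates 1 and 2. Eef1d, the second exchange subunit, chosen after its values were seen, had 57.6 and 57 CPM against 61.5 and 78.7 CPM under forced activity (log2 change -0.29, SE 0.25, adjusted p = 0.978), with -0.09 and -0.44 within replicates 1 and 2. Summed with the barely counted Eef1b2l, eEF1B reached 444 and 374 CPM under sleep restriction and 511 and 533 CPM under forced activity, a log2 ratio of -0.35 that lay between -0.48 and -0.23 with any 1 library left out.

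eEF2 and its kinase did not share this pattern. Eef2, the translocase, had 1714 and 1371 CPM under sleep restriction, against 1919 and 1346 CPM under forced activity. The spread between libraries of a group exceeded the difference between groups, and the log2 change was -0.08 (SE 0.23, adjusted p = 0.994), with -0.16 and 0.03 within replicates 1 and 2. Eef2k, the kinase that inactivates eEF2, had 31.8 and 46.8 CPM against 30.1 and 24.7 CPM under forced activity. Its groups did not overlap, but the log2 change of 0.53 (SE 0.31, adjusted p = 0.978) was 0.07 within replicate 1 and 0.82 within replicate 2. Eef1e1, which sits in the multisynthetase complex rather than in eEF1, and Eef2kmt, a methyltransferase of eEF2, held at most 9.3 and 2 counts in a library.

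**Figure D3:**
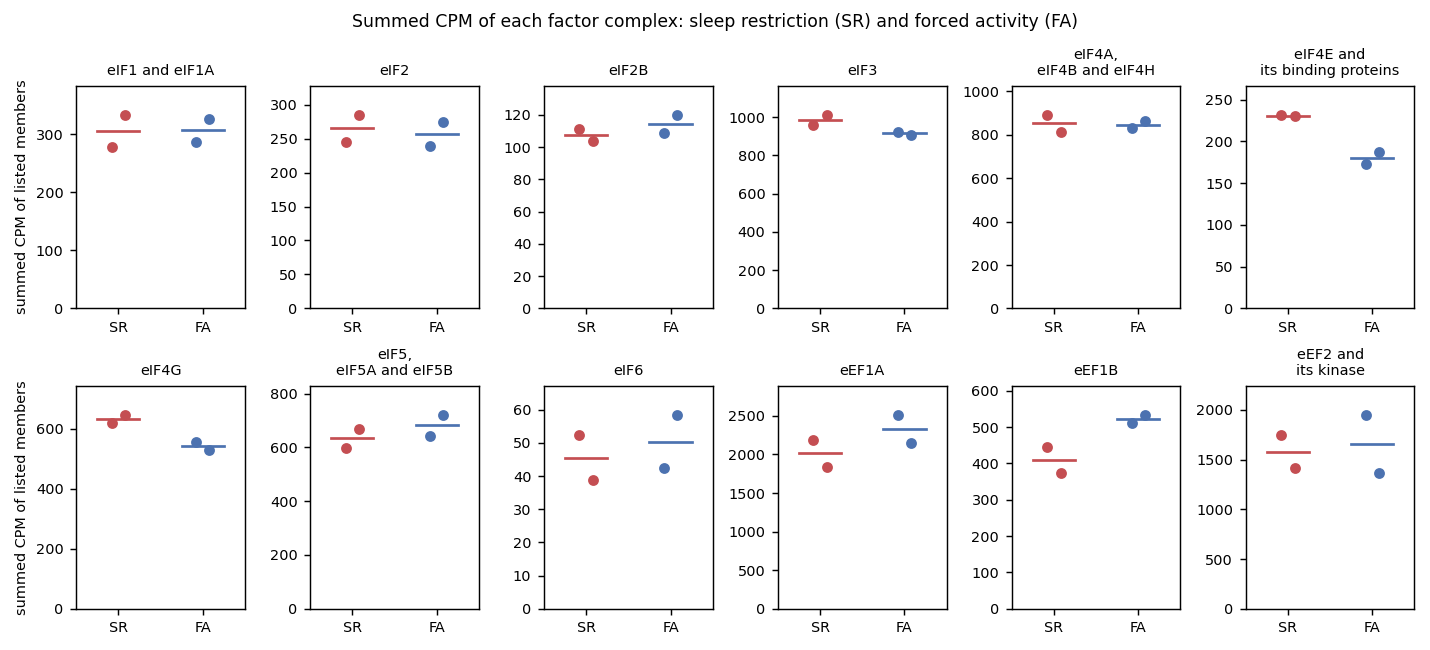
Summed TMM-scaled CPM (y axes, from 0) of all listed members of 12 factor groups in sleep restriction (SR, left) and forced activity (FA, right) libraries. Points are libraries, with replicate 1 on the left of each group, and lines are means. The eIF4E group stands at 232 and 230 CPM under SR and at 173 and 187 CPM under FA, and eEF1B at 444 and 374 CPM under SR and at 511 and 533 CPM under FA.

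Many eEF messages, like those of ribosomal proteins, are known to begin with an unbroken tract of pyrimidines, the 5′ terminal oligopyrimidine motif, through which TORC1 controls their translation. Start regions are therefore shown side by side for some elongation factors, and for some initiation factors whose groups did not overlap, in both directions. The genes were picked after their values were seen. The regions span 30 bases before and 30 bases after the annotated start, 5′ to 3′ on the gene's strand. They come from RefSeq on GRCr8, a later build than the rn6 of the count table, and capitals mark the longest unbroken run of C and T in the window. In GRCr8 the windows are chr8:88225040-88225099 (minus strand) for Eef1a1, chr9:72074061-72074120 (plus) for Eef1b2, chr1:215289785-215289844 (plus) for Eef1g and chr7:9189209-9189268 (minus) for Eef2. Those of the initiation factors are chr11:93746338-93746397 (minus) for Eif4g1, chr1:269918996-269919055 (minus) for Eif3a, chr1:190583038-190583097 (minus) for Eif3c, chr2:144911330-144911389 (plus) for Eif2a and chr10:55143192-55143251 (minus) for Eif5a.
Eef1a1: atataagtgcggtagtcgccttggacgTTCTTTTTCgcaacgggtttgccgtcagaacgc
Eef1b2: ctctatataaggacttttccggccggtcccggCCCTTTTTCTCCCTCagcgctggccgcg
Eef1g: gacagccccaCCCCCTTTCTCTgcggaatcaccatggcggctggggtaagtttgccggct
Eef2: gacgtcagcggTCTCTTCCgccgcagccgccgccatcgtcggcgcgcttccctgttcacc
Eif4g1: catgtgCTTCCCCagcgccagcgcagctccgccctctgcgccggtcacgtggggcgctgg
Eif3a: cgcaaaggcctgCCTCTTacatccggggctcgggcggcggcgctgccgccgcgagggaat
Eif3c: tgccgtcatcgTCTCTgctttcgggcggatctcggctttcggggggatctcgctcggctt
Eif2a: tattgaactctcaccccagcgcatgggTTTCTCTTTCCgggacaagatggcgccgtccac
Eif5a: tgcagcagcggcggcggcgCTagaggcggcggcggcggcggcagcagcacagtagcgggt

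The longest run was 9 bases in Eef1a1, where it spans the start, 15 in Eef1b2, 12 in Eef1g and 8 in Eef2. In Eef1g and Eef2 the run lies wholly before the annotated start. It was 7 bases in Eif4g1, 6 in Eif3a and 5 in Eif3c. Other tested members whose groups did not overlap are not printed. Of these, Eif1, lower under sleep restriction, had a run of 7 bases. The higher ones had runs of 3 and 5 in the start regions of Eif1a, 4 in Eif2ak1, 4 in Eif4g2 and 5 in Eef2k. The groups of Eef1a1 and Eef2 overlapped. Eif2a, higher in both sleep restriction libraries, held a run of 11 bases across the start, and Eif5a, lower in both, held no run over 2. A run of at least 8 bases on the gene's strand was present in 21 of the 59 start regions of the 56 member symbols that the RefSeq table holds, or 35.6%, against 23.2% of all 33469 start regions of the same length. Among tested members it was found in 2 of 4 start regions of genes whose sleep restriction values lay below forced activity, in 1 of 9 of those above, and in 15 of 35 of those that overlapped. Initiation factors that overlapped and are not printed held runs as long as the elongation factors, with 16 bases in Eif2s3 and 14 in Eif3f and Eif3k. Long runs were thus not confined to the elongation factors or to the lower genes. Eef1d is not in that table. Annotated starts are not measured ones, so a run beside the start is a description of the sequence only.

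The genomic span listed for a member tended to be longer where its change was more positive. Across the 50 tested members, Spearman's rho between the log2 change and the span was 0.52, with 0.28 within replicate 1 and 0.52 within replicate 2. Across all 4986 genes it was 0.26, with 0.25 and 0.19 within replicates 1 and 2. The members share libraries and depth and are not replicates, so these values are descriptions. The 25 members with the shorter spans, 0.987 to 12.4 kb, had a median log2 change of -0.10 and 17 negative values, and the 25 with the longer spans, 13.4 to 167 kb, had 0.13 and 5 negative values. Tested members above forced activity in both sleep restriction libraries spanned 11.4 to 62.1 kb, and tested members below it in both spanned 2.41 to 10.6 kb. Eef1a1, Eef1b2 and Eef2 span 1.95, 2.72 and 5.27 kb, and Eif4g1, Eif3c and Eif3a span 18.42, 18.2 and 30.2 kb. The part of length in the members' changes was not tested.

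**Figure D4:**
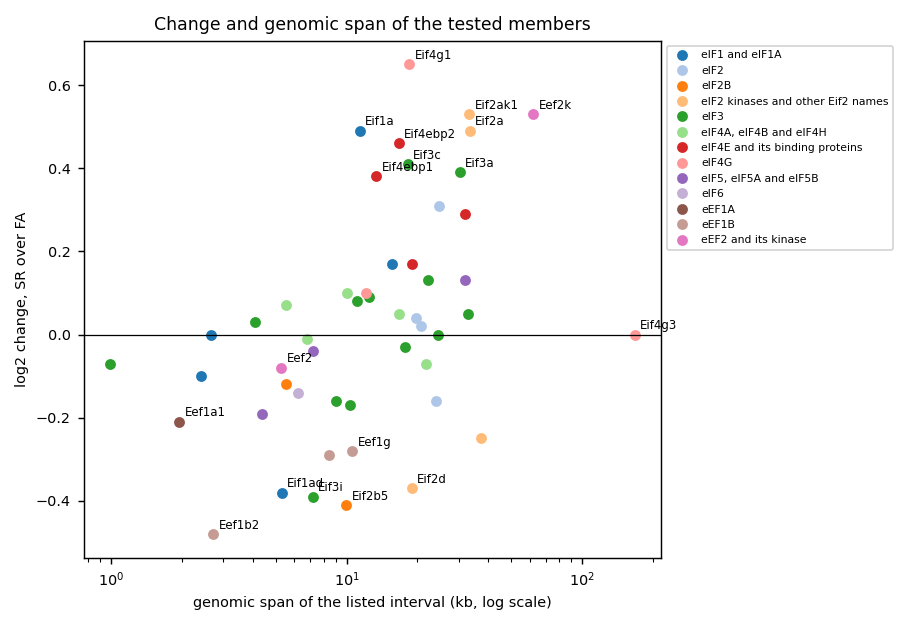
Log2 change of sleep restriction over forced activity (y axis) against the genomic span of the listed interval in kb (x axis, log scale) for the 50 tested members, coloured by complex. Points to the left, such as Eef1b2 at 2.72 kb and Eef1a1 at 1.95 kb, mostly lie below 0, and Eif4g3, the longest at 167 kb, lies at 0.00.

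Near-identical copies limit how far these counts can be assigned. The RefSeq names list 125 pseudogene entries called after 35 of the member symbols, with 20 for Eef1a1, 16 for Eef1g, 11 for Eif5, 10 for Eif4e, 5 for Eef2, 3 for Eif4g1 and none for Eif3a or Eif3c. The sources used here do not say how reads that match several copies were counted, and values of the factors with many copies are uncertain to that extent.

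**Figure D5:**
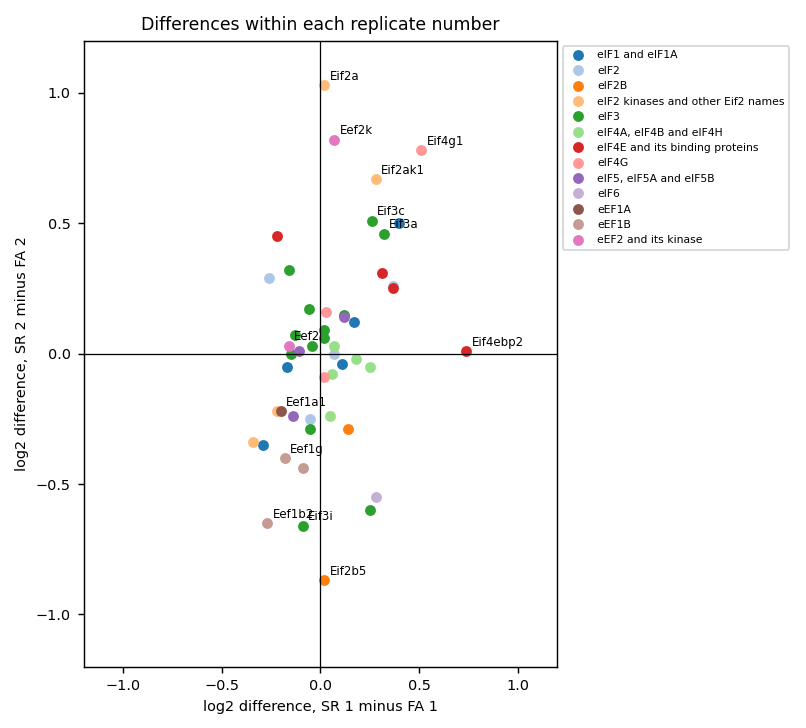
Log2 difference of sleep restriction minus forced activity within replicate 2 (y axis) against that within replicate 1 (x axis) for the 50 tested members, coloured by complex. Eif4g1 is positive on both axes at 0.51 and 0.78, Eef1b2 is negative on both at -0.27 and -0.65, and Eif4ebp2, Eif2a and Eif2b5 lie far out on 1 axis only.

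Among the members with log2 changes of at least 0.37 in size, Eif2b5 alone differed in sign between the replicate numbers. In Eif4g1, Eif1a, Eif2ak1, Eif3a, Eif3c, Eif4ebp1, Eif1ad, Eif2d and Eef1b2 both differences were 0.26 or more in size. In Eif2a, Eef2k, Eif4ebp2 and Eif3i the sign was shared, but 1 of the differences was 0.09 or less in size. The pooled change and both differences come from the same libraries, so choosing members by a large pooled change makes a shared sign likely. The cutoffs match values of the members themselves, and no share over all genes was computed.

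Other genes of the pathway were read from 7 lists, of which 70 genes were tested outside the members. The lists were chosen with earlier results of these data known, so their shares are descriptions only. None of the 70 was called, and 3 lay under 0.05 before adjustment in edgeR, or 4.29% against 4.25% of all genes. Their median log2 change was 0.09. Sleep restriction lay above forced activity in both libraries for 18 of them (25.7%, against 17.2% of all genes) and below it for 7 (10%, against 15.3%).

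The aminoacyl-transfer RNA synthetases, which charge the transfer RNAs that eEF1A carries, and their scaffold protein Aimp1 held 10 of these 18. Among all genes tested, 17.2% lay above forced activity in both libraries. Of the 21 tested genes of this list 17 had a positive change, against 2607 of all 4986 genes. Their median was 0.16, with 0.16 and 0.13 within replicates 1 and 2. Eprs, the glutamyl-prolyl synthetase, had 275 and 328 CPM under sleep restriction and 246 and 201 CPM under forced activity (log2 change 0.43, SE 0.21, adjusted p = 0.978), with 0.16 and 0.69 within replicates 1 and 2. Mars, the methionyl synthetase, had 88.3 and 95.6 CPM against 71.0 and 62.7 CPM under forced activity (0.45, SE 0.23, adjusted p = 0.978), with 0.30 and 0.58. Neither pair of groups overlapped, and no gene of the list passed the test.

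Among the 17 tested genes of TORC1 and its regulators, 12 were negative, against 47.7% of all genes tested. Their median of -0.15 was 0.04 within replicate 1 and -0.31 within replicate 2. Lamtor4, a subunit of the Ragulator complex that seats TORC1 on lysosomes, had 46.4 and 40.7 CPM under sleep restriction and 69.3 and 76.5 CPM under forced activity. Its log2 change of -0.74 (SE 0.25, adjusted p = 0.978) was -0.54 and -0.85 within replicates 1 and 2. Lamtor5, of the same complex, had 26.7 and 12.2 CPM against 28.4 and 37 CPM under forced activity (-0.74, SE 0.39, adjusted p = 0.978). Sleep restriction library 2 was the low one for Lamtor5, with -0.08 within replicate 1, -1.34 within replicate 2 and a range of -1.40 to -0.30 with 1 library left out.

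The 13 tested genes of poly(A) binding and cap-dependent regulation had a median of 0.12. Larp4b, an RNA-binding protein, had 56 and 61 CPM under sleep restriction, against 42.6 and 22.6 CPM under forced activity (log2 change 0.85, SE 0.31, adjusted p = 0.978). It was 0.36 within replicate 1, 1.29 within replicate 2, and 0.47 to 1.33 with 1 library left out. Gigyf2, a partner of the cap-binding repressor Eif4e2, had 38.1 and 54.9 CPM against 30.5 and 28.6 CPM under forced activity (0.66, SE 0.30, adjusted p = 0.978), with 0.28 and 0.85 within replicates 1 and 2. Both stood above forced activity in every sleep restriction library.

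Of the integrated stress response, the program that follows phosphorylation of eIF2, 5 genes were tested and none was called, with a median of 0.12. Atf4, its central transcription factor, had 203 and 281 CPM under sleep restriction, overlapping with 174 and 227 CPM under forced activity (log2 change 0.27, SE 0.24, adjusted p = 0.978). The difference was 0.22 and 0.30 within replicates 1 and 2, and the change ran from 0.02 to 0.48 with 1 library left out. Impact, an inhibitor of the GCN2 kinase, had a change of -0.44 (SE 0.43, adjusted p = 0.978). The 5 tested enzymes that modify factors or deliver selenocysteine were all negative, as were 47.7% of all genes tested, with a median of -0.22. Eefsec, the elongation factor for selenocysteine, had 22.8 and 14.2 CPM against 29.2 and 25.3 CPM under forced activity (-0.58, SE 0.36, adjusted p = 0.978), and Dph3, which helps make the diphthamide of eEF2, had -0.51 (SE 0.43, adjusted p = 0.978). Dph3 was at -0.15 within replicate 1, at -0.88 within replicate 2, and at -1.19 to -0.07 with 1 library left out.

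Termination and rescue factors had a median of 0.07 over 5 tested genes. Etf1, the release factor eRF1, had 79.8 and 116 CPM under sleep restriction and 83.1 and 61 CPM under forced activity (log2 change 0.45, SE 0.27, adjusted p = 0.978), with -0.06 within replicate 1 and 0.88 within replicate 2. Pelo, which frees stalled ribosomes, had 15.3 and 24.4 CPM against 29.0 and 26.9 CPM under forced activity (-0.48, SE 0.34, adjusted p = 0.978), with -0.78 and -0.12 within replicates 1 and 2. The 4 tested mitochondrial factors were all positive, as were 2607 of the 4986 genes tested. Their median of 0.31 was -0.01 within replicate 1 and 0.46 within replicate 2. Gfm1, the mitochondrial counterpart of eEF2, had 76.7 and 85.5 CPM against 71.0 and 62.1 CPM under forced activity (0.28, SE 0.23, adjusted p = 0.978). Guf1, a mitochondrial GTPase related to elongation factors, had 0.37 (SE 0.31, adjusted p = 0.978), with -0.12 and 0.74 within replicates 1 and 2.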

How the data were processed

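Per the labels' protocols, TRIzol was used to isolate RNA from liver, and an Illumina kit turned its fragmented messenger RNA into libraries. The submitters' processing notes name CASAVA, STAR 2.4.1d and rn6 without a role or order; no source used here names the program that counted reads. What the authors deposited is a single table whose rows are Ensembl genes and whose values are estimated counts. All values are multiples of 0.1, and sleep restriction library 2 holds whole numbers at 32544 of 32545 genes. This is read from the values and the table's own name as a mean over 10 draws down to the shallowest library, counted on the sense strand, which lowers the counting noise of the drawn libraries in a way the test does not model.

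Estimated counts were rounded and fitted over the whole table with edgeR 4.0.16 (R 4.3.3): TMM factors of 0.972 to 1.04, filterByExpr with a minimum count of 10, robust quasi-likelihood, Benjamini-Hochberg adjustment over 4986 genes. CPM are TMM-scaled counts per 1e+06 of the tested genes' totals. Log2 changes carry edgeR's default shrinkage, and their SE was calculated back from the F statistic. Differences within a replicate number use a prior count of 2. Summed CPM take every listed member. On 10 simulated data sets with a set dispersion of 0.05, the fit recovered 16.1% of 2-fold and 83.6% of 4-fold changes. Of its calls there, 4.05% were false. DESeq2 1.42.0 and limma 3.58.1 were run as alternatives. The members and lists were chosen with earlier results of these data known. Named members are, per complex, the one with the highest mean CPM and the one with the smallest p, plus a fixed set of key symbols such as Eef2 and Eif4e, and per pathway list the 2 with the smallest p. Eif3b, Eif4g3 and the other members given with single values outside this rule were chosen after their values were seen.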

Additional observations from a re-analysis of the deposited data

How the results depend on the processing

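No translation factor was called in any alternative fit or with any 1 library left out, a fit that lends the remaining single library the spread of the other group. The members' median log2 change, 0.01 as reported, was 0.00 with DESeq2 size factors, with library totals, in DESeq2 and in limma-voom, -0.02 with no gene filter, 0.02 with the 10 most abundant genes removed, 0.03 without rounding, and -0.03 to 0.04 with 1 library left out. Over all genes 1 was called, against 0 with no gene filter, in limma-voom and without robust estimation, 2 in DESeq2, and 0 to 0 with any 1 library left out. Members under an unadjusted 0.05 numbered 2 as reported (Eif4g1 and Eef1b2), 0 in DESeq2, 1 with abundant genes removed, and 0 to 2 with 1 library left out. Without forced activity library 1 they were Eif2a and Eif4g1, without sleep restriction library 2 Eif4ebp2 and Eif4g1, without sleep restriction library 1 Eif2b5 alone, and without forced activity library 2 there were 0, so Eef1b2 was in none of these 4 fits. For pathway genes it was 3 as reported, 0 in DESeq2 and 0 to 5 with 1 library left out (5 without sleep restriction library 1, and 0 without forced activity library 2 or sleep restriction library 2). Members lying below in both libraries numbered 10 of 61 with no gene filter, which lets in entries of very low count. Those above numbered 5 of 38 at a mean count of at least 20. Shares over all genes were not computed at these settings, so neither count is read as a result about the members. These counts of groups that do not overlap were not run with a library left out.

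With replicate number as a block, all genes called at an adjusted p under 0.05 numbered 11. Members under an unadjusted 0.05 numbered 4 of 50 (Eif4g1, Eef1b2, Eif3a and Eif3c) and pathway genes 5. The share of all genes under an unadjusted 0.05 was computed for the main fit only, so these counts have no background beside them. The labels give no shared animal, day or batch for a number, so libraries were paired by number only. The deviations of same-numbered libraries correlated at 0.206, and whether they share a source of variation was not tested.

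Signs turned for Eif2s2 with no gene filter (-0.01), within replicate 1 for Eif2b5 (0.02), Eif6 (0.28), Etf1 (-0.06) and Guf1 (-0.12), and within replicate 2 for Eef2 (0.03), Eif2s2 (0.00), Eif4a1 (-0.02), Eif4a3 (-0.05) and Eif5 (0.01). With 1 library left out, log2 changes spanned 0 for Eef2 (-0.32 to 0.20), Eif2s2 (-0.11 to 0.17), Eif4a1 (-0.10 to 0.27), Eif4a3 (-0.07 to 0.25), Eif4e (-0.08 to 0.75), Eif4ebp1 (-0.21 to 0.96), Eif4ebp2 (-0.03 to 0.82), Eif5 (-0.29 to 0.16), Eif6 (-0.39 to 0.10), Impact (-0.88 to 0.18) and Guf1 (0.00 to 0.66). Without a change of sign, the size moved by over 1.5 times for Eef1a1 (-0.35 to -0.09), Eef1d (-0.45 to -0.11), Eef1g (-0.48 to -0.11), Eef2k (0.24 to 0.76), Eif1 (-0.19 to -0.04), Eif1a (0.26 to 0.67), Eif2a (0.04 to 1.09), Eif2s3 (-0.32 to -0.03), Eif2ak2 (-0.40 to -0.11), Eif2d (-0.62 to -0.11), Eif2b5 (-0.89 to -0.06), Eif3a (0.22 to 0.53), Eif3c (0.22 to 0.56), Eif4g2 (0.01 to 0.17), Etf1 (0.15 to 0.69), Pelo (-0.80 to -0.22), Gigyf2 (0.38 to 0.89), Eefsec (-0.94 to -0.30) and Gfm1 (0.17 to 0.39), and for the 6 genes whose ranges stand in the text (Eif2s1, Eif3i, Lamtor5, Larp4b, Atf4 and Dph3). Signs also turned in the log2 ratios of summed CPM of eIF1 and eIF1A (-0.14 to 0.12), eIF2 (-0.07 to 0.15), the eIF4A, eIF4B and eIF4H group (-0.05 to 0.08), eIF6 (-0.38 to 0.10) and eEF2 with its kinase (-0.30 to 0.21). The cause of these changes was not tested.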
